A study of Mus musculus with 8 samples.

Results

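The integrin beta subunits are the 8 genes Itgb1 to Itgb8, taken by symbol from a table of read counts for 26667 genes in hind limb undifferentiated pleomorphic sarcomas (UPS) of mice. All 8 were in the table and all 8 passed the filter on low counts. The family was chosen by a reading of the same KPH2 against KP contrast in which Itgb4 and Itgb3 had already been called, so the differences between genotypes given for its members are a description. Which members pass the threshold is given only beside the share of all genes that do, and supports nothing. KP mice carry Trp53 fl/fl among their alleles, and KPH2 mice carry the same alleles and Epas1 fl/fl, the floxed gene of HIF-2α. All mice were on a mixed 129/C57BL/6 background, of both sexes and adult at injection, and in both genotypes tumours were started by adenovirus expressing Cre-recombinase (Ad-Cre) injected into hind limb muscle. Because the virus was injected locally, host cells that it did not reach, such as those that enter a tumour with vessels and blood, keep intact alleles. The age and the time after injection of each sequenced tumour are not given in the sources used here. Each tumour, fixed in formalin and embedded in paraffin (FFPE), gave 1 RNA library, and there were 4 KP tumours, numbered 5 to 8, and 4 KPH2 tumours, numbered 1 to 4.

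Total counts ran from 6463221 to 13155510 per tumour. The study set 1 knockout tumour aside after principal component analysis, and KPH2 1 is the one missing from the authors' 7-tumour table, so comparisons used KP 5 to 8 against KPH2 2 to 4 with KPH2 1 shown apart. Epas1, the deleted gene, was measured at 59.2, 83.2, 86.9 and 84.1 CPM (counts per 1e+06 counts of the scaled library) in KP 5, 6, 7 and 8, at 32.6 CPM in KPH2 1, and at 53.4, 37.7 and 42.5 CPM in KPH2 2, 3 and 4. Epas1 was lower in each KPH2 tumour than in any KP tumour. Its log2 fold change of -0.81 ± 0.19 (SE) had an adjusted p of 0.0742 by edgeR and of 0.0115 by DESeq2. Mesenchymal genes expected of a sarcoma were measured in every library, with summed levels of 10 markers between 10270 and 25440 CPM, to which collagens and Vim gave most. Of the 10, 1 was called by edgeR, where 1.96% of all genes tested were. This was Pdgfra, a receptor of mesenchymal cells, which fell in KPH2 tumours (log2 fold change -2.02 ± 0.27, adjusted p of 0.0183 by edgeR). It had 720.5 to 1494 CPM in KP tumours, 639 CPM in KPH2 1 and 224 to 273.6 CPM in KPH2 2 to 4. Whether fewer cells of a type or less RNA per cell lies behind a level cannot be told apart in such bulk samples.

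Integrins are receptors made of 1 alpha and 1 beta chain that join the extracellular matrix, or a neighbouring cell, to the cytoskeleton. The beta chain sets much of the signalling, because its short tail inside the cell binds talin and kindlin at short motifs. Many of these have the form Asn-Pro-x-Tyr, or Phe in place of Tyr, and others have a residue other than Pro. Itgb1 pairs with most alpha chains. Itgb4 pairs with α6 alone and binds laminin in the hemidesmosomes of epithelia. Itgb3, Itgb5, Itgb6 and Itgb8 share the αV chain, and Itgb2 and Itgb7 serve leukocytes.

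The Asn-Pro-x-Tyr or Asn-Pro-x-Phe motif nearest the membrane is printed for each member that has one, since Itgb4 and Itgb8 differ from the other members in it. Each line is 30 coding bases from the longest protein-coding GENCODE M21 transcript (GRCm38), 5′ to 3′, with the 4 motif codons in capitals.
Itgb1: acgggtgaaAATCCTATTTACaagagtgcc
Itgb2: aacaatgacAACCCCCTCTTCaagagtgct
Itgb3: acagcaaacAACCCGCTGTATaaagaggcc
Itgb5: atggcctcaAACCCCCTGTACagaaagccc
Itgb6: acgggaaccAATCCTCTGTACcgaggttcc
Itgb7: caggacaacAATCCTCTCTACaaaagtgcg
Itgb4: caactcagcAACCCCAAGTTCggagcccgc
The motif lies 19 residues before the end of the protein in Itgb1, Itgb2 and Itgb3, 29 before it in Itgb5, 30 in Itgb6 and 33 in Itgb7. In Itgb4 the motif of this form lies 732 residues before the end, in a stretch of 1085 residues that follows the most hydrophobic window of 21, against 47 to 65 residues in the other members. No motif of this form was found in the 65 residues after that window in Itgb8. Itgb1, Itgb2 and Itgb7 held a second one.

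In GRCm38 the genes lie apart, each on its own chromosome except that Itgb3 (chr11:104608000-104670476, plus strand) and Itgb4 (chr11:115974709-116008412, plus strand) are both on chromosome 11. Itgb1 lies on chromosome 8, Itgb2 on 10, Itgb5 on 16, Itgb6 on 2, Itgb7 on 15 and Itgb8 on 12. Of the 8, Itgb4 was the one overlapped by another annotated gene, B230344G16Rik on the opposite strand. Whether counting used the strand of the stranded libraries is not given in the sources used here. B230344G16Rik held 0 to 3 reads in the KP tumours, 1 in KPH2 1 and 11, 5 and 15 in KPH2 2, 3 and 4, against 58 to 402 reads of Itgb4 in KP and 702 to 1503 in KPH2 2 to 4.

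To place the members in order, levels were divided by the length of each gene's exons, as CPM per kb. In the 4 KP tumours Itgb1 stood first at 298.6 ± 87.5 CPM per kb (SD, n = 4), followed by Itgb5 at 92.2 ± 19.6, Itgb2 at 23.9 ± 4.64, Itgb3 at 18.9 ± 4.03, Itgb7 at 11.3 ± 7.26, Itgb4 at 2.56 ± 1.55, Itgb8 at 0.796 ± 0.118 and Itgb6 at 0.362 ± 0.292. The KP levels of Itgb2, Itgb3 and Itgb7 overlapped between tumours, as did those of Itgb7 and Itgb4 and those of Itgb8 and Itgb6, although within each of the 4 KP tumours Itgb2 was above Itgb3. Per kb of the longest transcript, Itgb6 (0.971) stood above Itgb8 (0.909) in KP 6. In KPH2 2 to 4 the order began in the same way, with Itgb1 at 344 ± 42.0 CPM per kb (SD, n = 3) and Itgb5 at 58.9 ± 22.1. Below them came Itgb7 at 20.2 ± 12.1, Itgb4 at 16.7 ± 8.54, Itgb2 at 14.3 ± 0.767, Itgb3 at 7.29 ± 2.14, Itgb6 at 1.8 ± 1.17 and Itgb8 at 1.44 ± 0.516. Itgb7, Itgb4 and Itgb2 did not differ beyond their spread there, nor did Itgb6 and Itgb8.

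Itgb1 made up 53.4, 73.9, 65.2 and 69.1% of the summed beta subunit level in KP 5, 6, 7 and 8. Its share was 75.1% in KPH2 1 and 75.7, 75.4 and 70.7% in KPH2 2, 3 and 4. It was thus the leading subunit in all 8 tumours, and Itgb5 was next in all 8, with 15.1 to 31.8% in KP tumours and 9.74 to 16.4% in KPH2 tumours. Itgb4 ranked 6 of 8 in each KP tumour and in KPH2 1, at 0.272 to 1.04% of the sum, and ranked 5 in KPH2 2 and 4 in both KPH2 3 and KPH2 4, at 2.81, 2.14 and 6.16%. With Itgb1 set aside, Itgb4 formed 0.783 to 3.36% of the remainder in KP tumours, 1.18% in KPH2 1 and 11.5, 8.69 and 21% in KPH2 2, 3 and 4. Itgb3 formed 9.08 to 15.4% of the remainder in KP tumours, 15.1% in KPH2 1 and 8.86, 4.38 and 5.24% in KPH2 2, 3 and 4. These shares compare genes within a tumour and do not depend on how libraries were scaled.

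**Figure D1:**
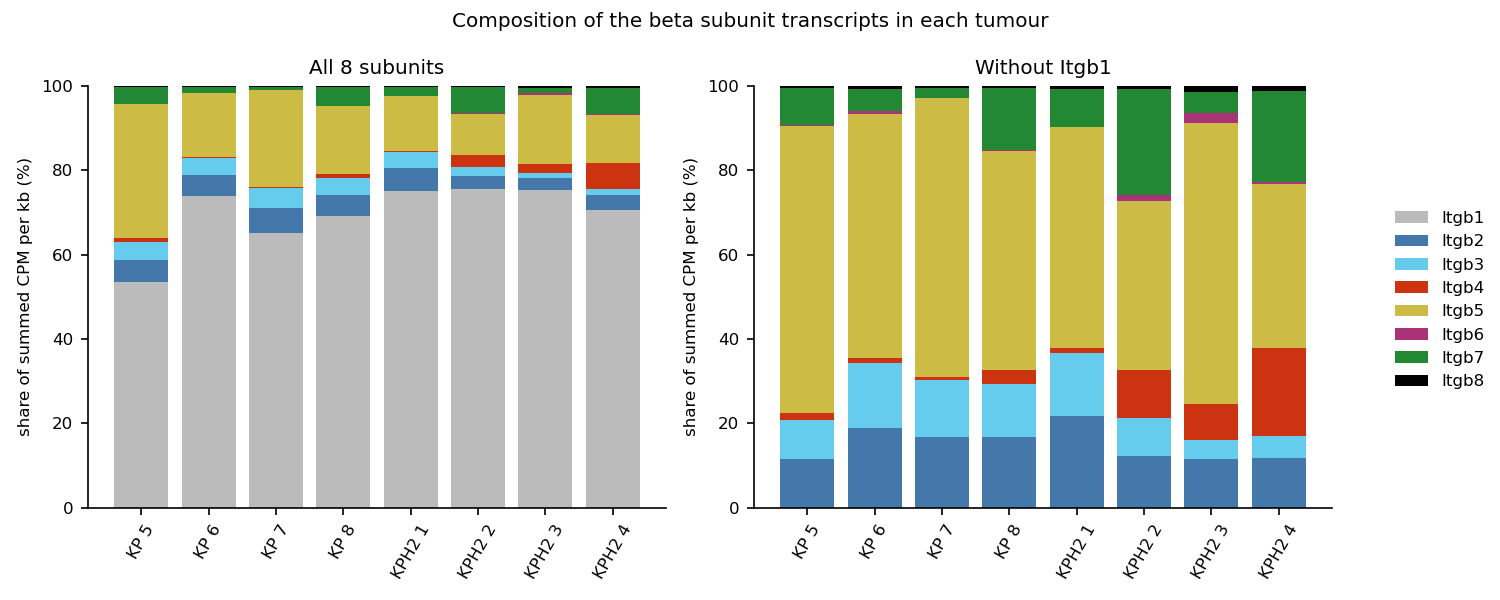
Stacked bars give, for each tumour, the share in percent of each beta subunit in the summed CPM per kb of the family, for all 8 subunits at left and without Itgb1 at right. Itgb1 fills 53.4 to 75.7% of every bar at left, and the Itgb4 band at right widens from at most 3.36% in KP tumours to 8.69 to 21% in KPH2 2 to 4, but not in KPH2 1 (1.18%).

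Between genotypes, 2 of the 8 members were called at an adjusted p under 0.05 by edgeR, Itgb4 higher and Itgb3 lower in KPH2 tumours. Over all 14867 genes tested, 1.96% were called, 1.24% higher and 0.72% lower, and nothing is read from the members' count because the family was chosen with these calls known. Each of the 2 calls was lost in 6 of the 7 fits that left out 1 tumour: Itgb3 kept its call without KP 5, and Itgb4 without KP 8. Groups did not overlap for 3 members, Itgb2, Itgb3 and Itgb4, and 16.9% of all genes did not overlap. The members' median log2 fold change was 0.52, with 5 higher and 3 lower, against a median of -0.02 over all genes tested. With KPH2 1 added, 0 members were called by edgeR (4 at an unadjusted p under 0.05), in a fit that called 0.00675% of all genes, and 0 members separated the groups where 8.15% of all genes did. No other tool was run on all 8 tumours. DESeq2 on the 7 tumours called 4 members, Itgb2, Itgb3, Itgb4 and Itgb6, and 7.2% of all genes.

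**Figure D2:**
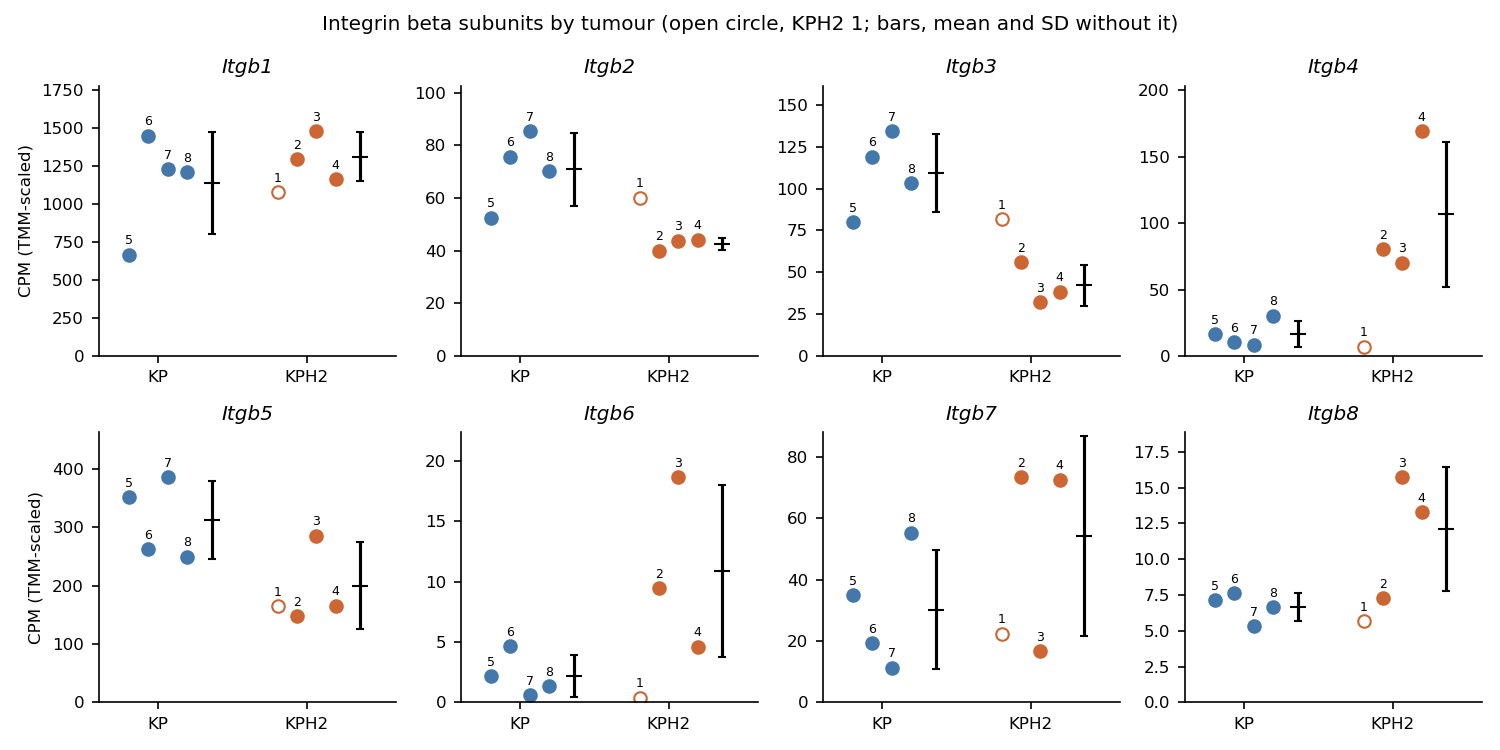
Each panel plots the TMM-scaled CPM of 1 beta subunit in the 4 KP and 4 KPH2 tumours, numbered as the tumours are, with the mean and SD of KP 5 to 8 and of KPH2 2 to 4 as bars and KPH2 1 as an open circle. Itgb4 sits at 70.2 to 169 CPM in KPH2 2 to 4 and at or under 30.3 CPM elsewhere, while Itgb3 lies below its KP range in KPH2 2 to 4 and within it in KPH2 1 (81.6 CPM).

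Itgb1 encodes the shared beta chain of the collagen, fibronectin and many laminin receptors. It was measured at 666, 1451, 1230 and 1210 CPM in KP 5, 6, 7 and 8, at 1076 CPM in KPH2 1 and at 1294, 1481 and 1162 CPM in KPH2 2, 3 and 4. KP 5 stood low, and the other tumours of both genotypes lay within overlapping ranges. Its log2 fold change was 0.20 ± 0.26 (SE).

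Among the alpha chains that pair with β1, Itga7, the laminin-binding chain of skeletal muscle, rose in KPH2 tumours. It was measured at 17.8, 38.1, 29.2 and 44.7 CPM in KP 5, 6, 7 and 8, at 6.47 CPM in KPH2 1 and at 156, 122 and 139 CPM in KPH2 2, 3 and 4. Its log2 fold change was 2.10 ± 0.29, with an adjusted p of 0.0191 by edgeR, and the 7 tumours did not overlap, whereas KPH2 1 lay below every KP tumour. Beside it, the summed level of 20 skeletal muscle markers was 1744 to 3128 CPM in KP tumours, 1418 CPM in KPH2 1 and 11820, 18470 and 4091 CPM in KPH2 2, 3 and 4. In the fit with the muscle score as a covariate, which called 3 genes of all, Itga7 was not called (log2 fold change 2.16, adjusted p of 0.399), and the part of muscle content in its rise was not tested further. Itga5, the fibronectin receptor chain, had a log2 fold change of -0.79 ± 0.36 (adjusted p of 0.31), and Itga1 and Itga2, which bind collagen, had -0.04 ± 0.48 and -1.42 ± 0.62 (adjusted p of 0.979 and 0.282).

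Itgb4, the laminin-binding chain of hemidesmosomes, was measured at 16.3, 10.2, 8.60 and 30.3 CPM in KP 5, 6, 7 and 8. In KPH2 2, 3 and 4 it reached 80.6, 70.2 and 169 CPM, whereas KPH2 1 held 7.03 CPM. KPH2 2, 3 and 4 were thus above every KP tumour, and KPH2 1 was below them all. KP tumours averaged 16.4 ± 9.89 CPM (SD, n = 4) and KPH2 2 to 4 averaged 106.7 ± 54.5 CPM (SD, n = 3), which gave a fitted 2.68 ± 0.49 on the log2 scale (6.43-fold). With KPH2 1 included it was 2.30 ± 0.79.

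Its single partner chain, Itga6, had 244.6, 228, 157 and 209 CPM in KP 5, 6, 7 and 8, 217 CPM in KPH2 1 and 550.4, 348 and 390.6 CPM in KPH2 2, 3 and 4. Without KPH2 1 the groups did not overlap, and the log2 fold change of 1.03 ± 0.21 was not called by edgeR (adjusted p of 0.0523) but was by DESeq2 (adjusted p of 0.00109). Per kb, Itgb4 stood at 0.0305 to 0.0991 of the Itga6 level in KP tumours, at 0.0221 in KPH2 1, and at 0.1, 0.138 and 0.296 in KPH2 2, 3 and 4. So α6 transcripts exceeded β4 transcripts in every tumour, and the ratio in KPH2 2 hardly exceeded that of KP 8 (0.0991). Itga3, which forms the other main laminin receptor of epithelia with β1, was at 12.1 to 84.5 CPM in KP tumours, at 32.3 CPM in KPH2 1 and at 167 to 290.9 CPM in KPH2 2 to 4, with a log2 fold change of 2.63 ± 0.64 and an adjusted p of 0.082 by edgeR and of 0.000233 by DESeq2.

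Among the laminin chains, ligands of both receptors, 2 of 11 passed the test by edgeR, both higher, where 1.96% of all genes passed. The median log2 fold change of the list was 0.05. Lama5, the α5 chain of basement membrane laminin, was measured at 34.9, 43.3, 47.7 and 35.4 CPM in KP 5, 6, 7 and 8, at 25.6 CPM in KPH2 1 and at 440.3, 360.1 and 527.5 CPM in KPH2 2, 3 and 4. Its log2 fold change was 3.46 ± 0.19, with an adjusted p of 0.00072 by edgeR. Lamb3, a chain of the laminin found under epithelia, was near the limit of counting at 0.148 to 0.707 CPM in KP tumours and 0.0799 CPM in KPH2 1, and rose to 3.15, 4.00 and 2.48 CPM in KPH2 2, 3 and 4 (log2 fold change 3.23 ± 0.53, adjusted p of 0.027). Lama3, which assembles with Lamb3, was lower in those same tumours, at 4.6 to 6.54 CPM against 9.04 to 14.2 CPM in KP tumours (log2 fold change -1.09 ± 0.24, adjusted p of 0.0646).

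The other parts of a hemidesmosome did not pass the test. Of 6 genes listed, 4 were measured above the filter and 0 were called by edgeR, with 0 at an unadjusted p under 0.05 and 0 by DESeq2. Plec and Dst, the plakin linkers, were abundant at 1016 to 2829 CPM and 1354 to 2213 CPM over the 7 tumours, and Col17a1 lay between 3.92 and 6.37 CPM. Krt5 and Krt14, the keratins to which hemidesmosomes anchor, had 0 counts in all 8 tumours.

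Keratins of simple epithelia were, like Itgb4, above every KP tumour in each of KPH2 2, 3 and 4. Krt8 was at 0.707 to 2.01 CPM in KP tumours, 1.44 CPM in KPH2 1, and 262.5, 6.91 and 282.5 CPM in KPH2 2, 3 and 4 (log2 fold change 7.27 ± 1.18, adjusted p of 0.0299 by edgeR). Krt18, its partner, was at 0.445 to 4.53 CPM in KP tumours, 56.2 CPM in KPH2 1 and 202, 40.8 and 228 CPM in KPH2 2, 3 and 4 (log2 fold change 5.73 ± 0.74, adjusted p of 0.0183). These were the 2 of 9 epithelial markers that passed the filter. Of the other markers of the list, all under the filter, Krt15 was at 0 counts throughout, Epcam was at 0.142 to 1.41 CPM in KP and 0.36 to 1.35 CPM in KPH2 2 to 4, and Grhl2 was at most 0.799 CPM in any tumour. Cdh1, the epithelial cadherin and a ligand of αEβ7, was at 0.446 to 2.22 CPM in KP tumours, 0.16 CPM in KPH2 1 and 6.75, 1.5 and 10.8 CPM in KPH2 2, 3 and 4, and was called by DESeq2 (adjusted p of 0.0148) but not by edgeR (log2 fold change 2.37 ± 0.70, adjusted p of 0.13). Summed, the list reached 2.22 to 7.80 CPM in KP tumours, 59.8 CPM in KPH2 1 and 49.0 to 513.7 CPM in KPH2 2 to 4. Their part in the Itgb4 level was not tested. Schwann cells also express Itgb4, and their defining marker Sox10 stayed at or under 0.891 CPM in all tumours.

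Itgb3, which forms the vitronectin receptor with αV and the platelet fibrinogen receptor with αIIb, was measured at 79.9, 119, 134.5 and 103 CPM in KP 5, 6, 7 and 8. KPH2 1 had 81.6 CPM, and KPH2 2, 3 and 4 had 56.0, 32.1 and 38.3 CPM. KPH2 2 to 4 were below every KP tumour, and KPH2 1 fell just inside the KP range. KP tumours averaged 109 ± 23.3 CPM (SD, n = 4) against 42.1 ± 12.4 CPM (SD, n = 3) in KPH2 2 to 4, and the fitted log2 fold change was -1.37 ± 0.25. With KPH2 1 included it was -1.07 ± 0.30.

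Itgav encodes the αV chain that Itgb3, Itgb5, Itgb6 and Itgb8, among others, pair with. It was measured at 983, 985, 751 and 744 CPM in KP 5, 6, 7 and 8. KPH2 1 had 725 CPM, and KPH2 2, 3 and 4 had 634, 654 and 679 CPM. Itgav did not pass the test (log2 fold change -0.40 ± 0.17, adjusted p of 0.263), although the 7 tumours did not overlap. Per kb, Itgb3 stood at 0.0991 to 0.218 of the Itgav level in KP tumours, at 0.137 in KPH2 1 and at 0.108, 0.0599 and 0.0689 in KPH2 2, 3 and 4. Itga2b, the platelet partner, lay between 4.45 and 14.8 CPM in KP and between 5.70 and 7.29 CPM in KPH2 2 to 4 (log2 fold change -0.44 ± 0.39, adjusted p of 0.614). Beside Itgb3, all 3 platelet markers that passed the filter had negative log2 fold changes without passing the test, Ppbp of -2.32, Pf4 of -1.03 and Gp1ba of -0.05, with Pf4 at 16.4 to 47.0 CPM in KP and 15.4 to 22.1 CPM in KPH2 2 to 4, whereas the defining marker Gp9 stayed at or under 0.45 CPM. Of 9 endothelial markers, 8 were lower and 0 were called by edgeR (4 at an unadjusted p under 0.05). DESeq2 called Pecam1 and Kdr, both lower (adjusted p of 0.0398 and 0.0179). The 9 summed to 317 to 551 CPM in KP tumours, 227 CPM in KPH2 1 and 284 to 303 CPM in KPH2 2 to 4. Osteoclast markers summed to 128 to 454 CPM, 368 CPM and 70.0 to 150.5 CPM in the same groups. Of 5 tested, 3 were lower and 2 higher, and 0 were called by edgeR (1 at an unadjusted p under 0.05). Ctsk was at 107.9 to 354 CPM in KP and 26.5 to 81.7 CPM in KPH2 2 to 4 (log2 fold change -1.68 ± 0.52), and was called by DESeq2 (adjusted p of 0.0095). Acp5 and Dcstamp had log2 fold changes of 0.34 and 0.67. The part of platelet, endothelial and osteoclast content in the Itgb3 level was not tested.

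Itgb5, another αV partner that binds vitronectin, was measured at 352, 263, 386 and 249.9 CPM in KP 5, 6, 7 and 8, at 165 CPM in KPH2 1 and at 148, 286 and 166 CPM in KPH2 2, 3 and 4. KPH2 1, 2 and 4 lay below the KP tumours, and KPH2 3 lay among them. The log2 fold change was -0.65 ± 0.27, and it was -0.71 ± 0.24 with KPH2 1 included.

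Itgb6 forms the αVβ6 receptor, which binds latent TGF-β and is known from epithelia. Its counts were low, with 29, 33, 4 and 18 reads in KP 5, 6, 7 and 8, 5 reads in KPH2 1 and 105, 186 and 41 reads in KPH2 2, 3 and 4. Scaled, these were 2.15, 4.67, 0.593 and 1.36 CPM in KP, 0.4 CPM in KPH2 1 and 9.45, 18.6 and 4.62 CPM in KPH2 2, 3 and 4. KPH2 2 and 3 stood above the rest, and KPH2 4 was level with KP 6. Its log2 fold change of 2.32 ± 0.66 became 0.86 once the mean log2 level of the skeletal muscle markers entered the fit as a covariate. The summed muscle markers were at 18470, 11820 and 4091 CPM in KPH2 3, 2 and 4 and at 1418 CPM in KPH2 1. Among KP tumours KP 6 had the highest Itgb6 with 2275 CPM of muscle markers, below KP 5 at 3128 CPM and KP 8 at 3004 CPM. The part of muscle content in the Itgb6 level was not tested beyond this fit. In the same covariate fit Itgb4 had a log2 fold change of 2.90 and Itgb3 of -1.06, and 0 members were called by edgeR (1 at an unadjusted p under 0.05).

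Itgb8, whose αVβ8 receptor also binds latent TGF-β, was at 7.13, 7.64, 5.34 and 6.64 CPM in KP 5, 6, 7 and 8, at 5.67 CPM in KPH2 1 and at 7.29, 15.7 and 13.3 CPM in KPH2 2, 3 and 4. KPH2 3 and 4 were above all other tumours, and KPH2 2 was within the KP range. The log2 fold change was 0.85 ± 0.29. Among 7 genes of latent TGF-β, 1 passed the test by edgeR, where 1.96% of all genes did. This was Lrrc32, which holds latent TGF-β at the cell surface. It fell from 35.9, 38.6, 43.4 and 41.9 CPM in KP 5, 6, 7 and 8 to 9.54, 11.5 and 8.56 CPM in KPH2 2, 3 and 4 (log2 fold change -2.02 ± 0.17, adjusted p of 0.00514 by edgeR). KPH2 1 had 15.3 CPM and was below every KP tumour too. Lrrc33, which does so on myeloid cells, was at 62.3 to 109.5 CPM in KP and at 33.1 to 44.9 CPM in KPH2 2 to 4. Its log2 fold change of -1.07 ± 0.22 was not called by edgeR (adjusted p of 0.0505) but was by DESeq2 (adjusted p of 0.0012).

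Other ligands with an RGD motif, which the αV receptors bind, were measured above the filter for 8 of 11 genes. The other 3, Fga, Fgb and Fgg, encode fibrinogen, the ligand of the platelet receptor of Itgb3. They were at 0.142 to 6.19 CPM in KP tumours, each highest in KP 8, and at most 0.338 CPM in KPH2 tumours, where Fgb had 0 counts in all 4. In reads, KP 8 had 82, 50 and 55, while KP 5, 6 and 7 had 11, 8 and 3 of Fga, 4, 3 and 1 of Fgb and 14, 1 and 1 of Fgg. The genotypes did not overlap for any of the 3 over the 8 tumours, as for 8.15% of the genes past the filter. For Fgg this rested on library scaling, since KP 6, KP 7 and KPH2 1 had 1 read each. DESeq2, which tested them, called each lower in KPH2 2 to 4 (adjusted p of 0.0354, 0.0137 and 0.00878), where it called 7.2% of all genes. Of the 8 tested by edgeR, 1 was called, where 1.96% of all genes were. This was Npnt (nephronectin, a ligand of α8β1), at 8.24, 12, 3.85 and 13 CPM in KP 5, 6, 7 and 8. Npnt rose to 39.5, 49.4 and 34.4 CPM in KPH2 2, 3 and 4, with 7.11 CPM in KPH2 1 (log2 fold change 2.14 ± 0.36, adjusted p of 0.0325 by edgeR). Its receptor chain Itga8 was at 11.4 to 34.6 CPM in KP and at 16.6, 183 and 44.4 CPM in KPH2 2, 3 and 4 (log2 fold change 2.02 ± 0.75, adjusted p of 0.211). Fn1 was among the most abundant of the ligands, at 5465 to 25050 CPM in KP and 8001 to 12720 CPM in KPH2 2 to 4 (log2 fold change -0.26 ± 0.56, adjusted p of 0.858).

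Itgb2, the common chain of the leukocyte integrins, was measured at 52.5, 75.5, 85.4 and 70.1 CPM in KP 5, 6, 7 and 8, at 60.1 CPM in KPH2 1 and at 40.0, 43.7 and 44.1 CPM in KPH2 2, 3 and 4. KPH2 2 to 4 sat close together below every KP tumour, and KPH2 1 was within the KP range. The log2 fold change was -0.74 ± 0.19, and it was -0.59 ± 0.19 with KPH2 1 included. All 9 leukocyte markers tested were also lower, with 0 called by edgeR (6 at an unadjusted p under 0.05) and sums of 1754 to 3168 CPM in KP tumours, 1720 CPM in KPH2 1 and 1452 to 1898 CPM in KPH2 2 to 4. Ptprc, the pan-leukocyte marker CD45, was at 140.3 to 275.4 CPM in KP and 109 to 137 CPM in KPH2 2 to 4. The part of leukocyte content in the Itgb2 level was not tested.

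Of the alpha chains that pair with β2, 1 passed the test by edgeR, where 1.96% of all genes did. Itgax, the αX chain of dendritic cells and macrophages, rose from 9.88, 12.4, 10.8 and 15.1 CPM in KP 5, 6, 7 and 8 to 26.7, 31.0 and 27.8 CPM in KPH2 2, 3 and 4, with 10.8 CPM in KPH2 1 (log2 fold change 1.24 ± 0.19, adjusted p of 0.0239 by edgeR). Itgam, the αM chain of myeloid cells, had a log2 fold change of -0.85 ± 0.32 (adjusted p of 0.211), and Itgal, the αL chain of lymphocytes, one of 0.08 ± 0.30 (adjusted p of 0.923).

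Itgb7, which pairs with α4 and αE on lymphocytes, had levels of 35.0, 19.2, 11.3 and 55.4 CPM in KP 5, 6, 7 and 8, at 22.5 CPM in KPH2 1 and at 73.4, 16.7 and 72.7 CPM in KPH2 2, 3 and 4. KPH2 2 and 4 were above the rest and KPH2 3 lay among the KP tumours, so that the groups overlapped (log2 fold change 0.83 ± 0.62). Within KPH2 2 to 4 alone, Krt8 was likewise high in KPH2 2 and 4 (262.5 and 282.5 CPM) and lower in KPH2 3 (6.91 CPM). Unlike Itgb7, Krt8 in KPH2 3 was above every KP tumour, and KP 8, highest of the KP tumours in Itgb7, had 0.755 CPM of Krt8. The part of Krt8 in the Itgb7 level was not tested. Itga4 and Itgae, the partner chains, had log2 fold changes of 0.04 ± 0.22 and -0.11 ± 0.42 (adjusted p of 0.954 and 0.927). Cd3e, a T cell marker, was at most 2.26 CPM in any tumour, and Cd79a, a B cell marker, at most 0.789 CPM. Per kb, Itgb7 exceeded Itgae in all 8 tumours, by ratios of 2.94 to 18.8 in KP tumours and of 37.7, 2.6 and 22.5 in KPH2 2, 3 and 4. Against Itga4 the ratio was 1.48, 0.607, 0.596 and 1.58 in KP 5, 6, 7 and 8, 1.45 in KPH2 1 and 2.99, 0.544 and 2.51 in KPH2 2, 3 and 4, so that Itga4 exceeded Itgb7 in 3 tumours.

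Vcam1 encodes the endothelial and stromal ligand of the α4 receptors. Of 6 tested ligands of leukocyte integrins, Vcam1 was the 1 called by edgeR, where 1.96% of all genes were. It was measured at 85.3, 144.6, 106.9 and 136 CPM in KP 5, 6, 7 and 8, at 44.7 CPM in KPH2 1 and at 238, 234.6 and 300.8 CPM in KPH2 2, 3 and 4 (log2 fold change 1.12 ± 0.21, adjusted p of 0.0381 by edgeR). Icam1, a ligand of the β2 receptors, was at 24.0 to 31.4 CPM in KP and 13.4 to 18.1 CPM in KPH2 2 to 4. Its log2 fold change of -0.74 ± 0.18 was not called by edgeR (adjusted p of 0.0823) but was by DESeq2 (adjusted p of 0.0187).

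Of 26 genes listed as adaptors of the beta tails, 24 were tested, 14 were higher and 10 lower, and 1 passed the test, where 1.96% of all genes did. This was Bcar1, the scaffold p130Cas, which rose from 22.7, 24.3, 32.2 and 25.3 CPM in KP 5, 6, 7 and 8 to 46.9, 71.5 and 49.8 CPM in KPH2 2, 3 and 4, with 28.0 CPM in KPH2 1 (log2 fold change 1.10 ± 0.20, adjusted p of 0.0381 by edgeR). Tln1 and Fermt2, the talin and kindlin of most tissues, had log2 fold changes of 0.02 ± 0.19 and -0.17 ± 0.16 (adjusted p of 0.968 and 0.622).

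All pathway lists together held alpha chains, ligands, hemidesmosome partners, adaptors and genes that resemble beta chains. Of their 89 genes 78 were tested, of which 7 were called higher and 1 lower, or 10.3% against 1.96% of all genes tested. The lists were chosen with earlier results of these data known, so nothing is read from this share. The median log2 fold change was 0.03 against -0.02. Lama5 and Lrrc32 were called in all 7 fits that left out 1 tumour, and the other 6 lost their call in at least 2 of these fits. In the fit with KPH2 1, 0 of 76 were called by edgeR (23 at an unadjusted p under 0.05), where 0.00675% of all genes were. For the 7 genes that rose, KPH2 1 lay inside the KP range for Itgax, Npnt and Bcar1 and below it for Lama5, Lamb3, Itga7 and Vcam1. The called genes are a mixed set: 2 laminin chains, nephronectin, 2 alpha chains, a leukocyte ligand and an adaptor rose, and the fall was in a TGF-β anchor.

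**Figure D3:**
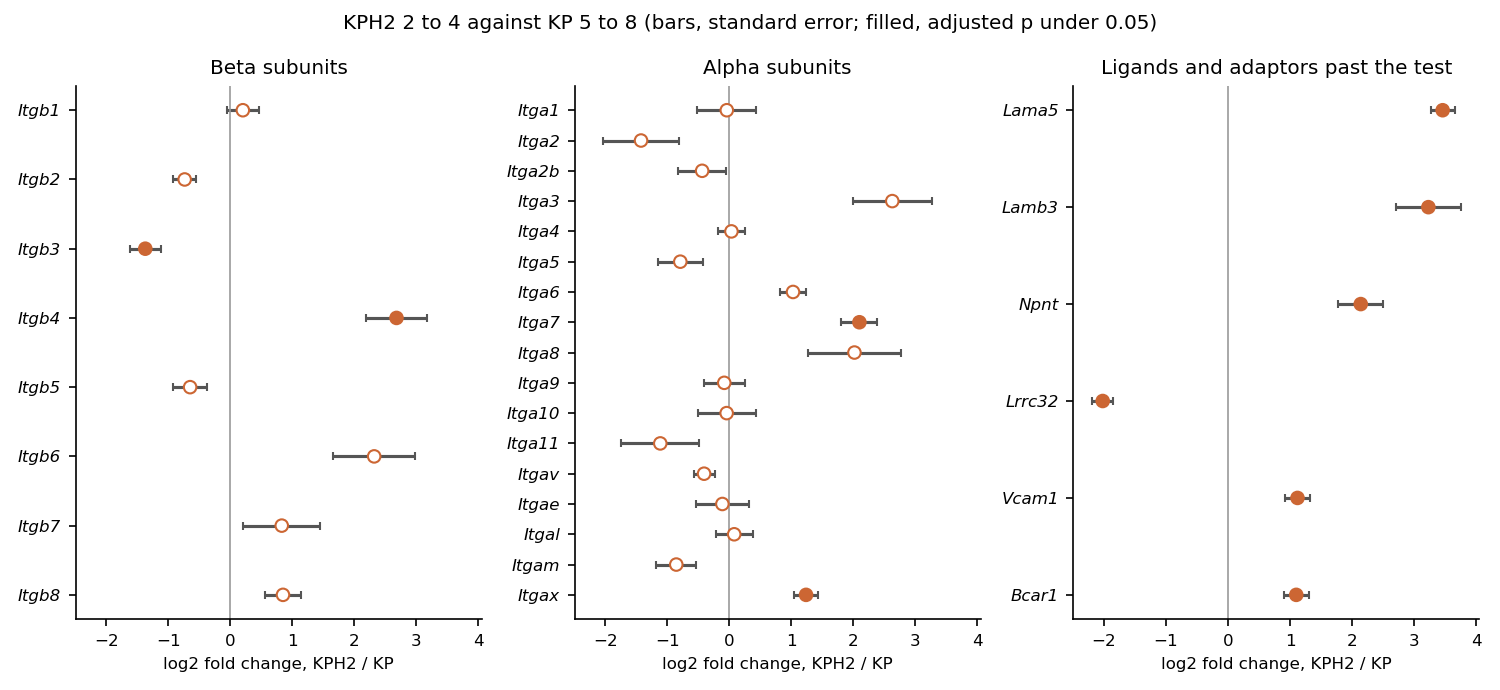
Points give log2 fold changes of KPH2 2 to 4 against KP 5 to 8 with standard errors, for the 8 beta subunits, the 17 alpha subunits tested and the ligand and adaptor genes past the test, and filled points have an adjusted p under 0.05. Among the beta subunits Itgb4 (2.68) and Itgb3 (-1.37) are filled, and among the alpha subunits Itga7 (2.10) and Itgax (1.24).

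**Figure D4:**
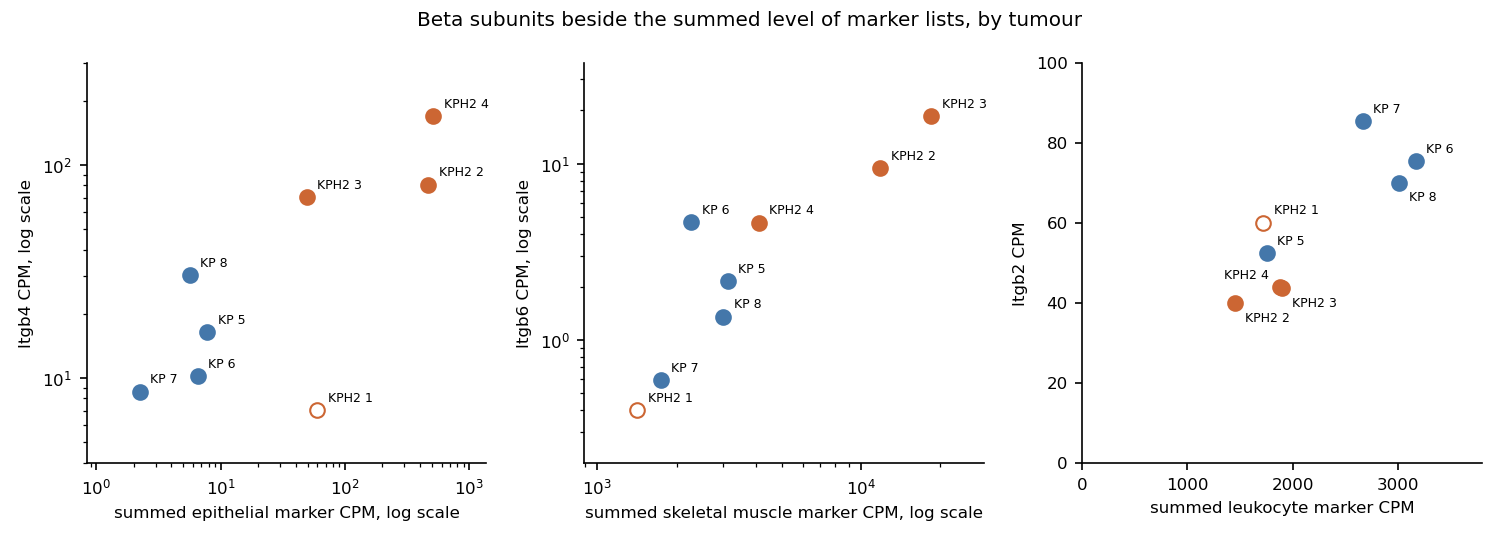
CPM of Itgb4, Itgb6 and Itgb2 in each tumour is plotted against the summed CPM of the epithelial, skeletal muscle and leukocyte markers, on log scales in the first 2 panels, with KP tumours in blue, KPH2 tumours in orange and KPH2 1 open. At left KPH2 1 lies at 59.8 CPM of epithelial markers and 7.03 CPM of Itgb4 and KPH2 3 at 49.0 and 70.2 CPM, and in the middle KPH2 3 lies at 18470 CPM of muscle markers and 18.6 CPM of Itgb6 and KP 6 at 2275 and 4.67 CPM.

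Genes whose pattern over the 8 tumours was most like that of a member were found from the root mean square difference of log2 CPM, each gene centred on its own mean, among 14805 genes. For Itgb4 these were Lgr6 and Fhdc1, with differences of 0.496 and 0.528 where the median gene differed by 1.63. Lgr6 was at 4.24 to 12.7 CPM in KP, 2.64 CPM in KPH2 1 and 55.4, 40.7 and 60.1 CPM in KPH2 2, 3 and 4. For Itgb3 they were Man1a (0.192) and Mctp2 (0.201), against a median of 0.78. Klhl31 (0.33) and Rbm24 (0.374) were nearest to Itgb6, with Klhl31 at 28.8, 56.9 and 7.78 CPM in KPH2 2, 3 and 4 and 2.22 to 12.3 CPM in KP tumours. The nearest were Tpm4 and Klhl2 for Itgb1, Spata1 and Slc25a40 for Itgb2, Glipr2 and Orm2 for Itgb5, Aim1 and C1ql3 for Itgb7, and Vsig10 for Itgb8, with differences between 0.0973 (Tpm4) and 0.425 (C1ql3). Being the nearest of many genes over 8 tumours, they are given as a description.

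Since HIF-2α binds DNA at the core ACGTG or GCGTG, both were searched on both strands of the RefSeq promoters (GRCm38.p6) from 250 bases before to 50 after the start, which were given for Itgb1, Itgb5, Itgb6, Itgb7 and Itgb8. Itgb5 held 1 copy of GCGTG, and no match was found in the windows of the other 4. Of 32851 mouse promoters of this length, 19.6% held ACGTG, 32.4% GCGTG and 43.8% either one.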

How the data were processed

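The authors sequenced rRNA-depleted RNA from FFPE tumours, used STAR 2.4 for alignment against GRCm38, and took uniquely aligned reads of each RefSeq gene by HTSeq 0.6.1. The deposited counts are not normalized. The deposited log2 values are DESeq2 1.6 rlog values of the authors, shrunken toward each gene's mean at low counts, and served as an alternative. The test was that of edgeR 4.0.16 (R 4.3.3): TMM, a filter with minimum count 10 and minimum total count 15, robust quasi-likelihood tests over all genes, and Benjamini-Hochberg adjusted p under 0.05. CPM used TMM library sizes over all 8 tumours, log2 levels a prior count of 2. Exon lengths came from GENCODE M21. SE is that of the fitted log2 fold change. Tests were tried on simulated data. DESeq2 1.42.0 and limma 3.58.1 were alternatives.

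Members, gene lists and tests were chosen with earlier results of these data known. Named genes were the 8 members, alpha chains pairing with them, list genes past the test, the 2 nearest in pattern for each member, and Epas1. Marker genes, other list genes and the overlapping gene were named after their values were seen. Nrros and Tns2 were read under the table's symbols Lrrc33 and Tenc1. Each library is 1 tumour. The sources used here do not say that each came from a separate mouse, and p-values measure the spread between these tumours. Tail motifs were read from translated GENCODE M21 transcripts. Promoters of Itgb2, Itgb3 and Itgb4 were not analysed here. An allele shared by both genotypes and 3 genes of the lists or rules are not reported here.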

Additional observations from a re-analysis of the deposited data

Results flagged for a closer look

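In 66 groups of 4 tumours (33 genes, each in KP and in KPH2 tumours), 3 held 1 tumour far from the other 3 by Dixon's test, and chance flags about 1 in 20 groups. Itgb5 in KPH2 3, at 285.7 CPM, stood above the other KPH2 tumours, which lay between 148 and 166 CPM. Epas1 in KP 5, at 59.19 CPM, stood below the other KP tumours at 83.2 to 86.9 CPM, and KP 5 was also the KP tumour with the lowest Itgb1, Itgb2 and Itgb3. Spata1, near to Itgb2 in pattern, was at 7.832 CPM in KPH2 1 against 4.95 to 5.07 CPM in the other KPH2 tumours.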

How the results depend on the processing

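Of 254 alternative fits of the 8 members and 8 called pathway genes, 0 reversed a direction, 189 stayed on their side of the threshold, 62 lost a call and 3 gained one. The number of members called went from 2 to 0 with all 8 tumours, 1 with no filter on low counts (Itgb4 lost), 4 with DESeq2 and 0 with the skeletal muscle score as covariate. It ran from 0 to 2 with each tumour left out: Itgb3 was called without KP 5 and Itgb4 without KP 8, and each lost its call without any other tumour (Itgb3 -1.63 to -1.21, Itgb4 2.19 to 3.17 on the log2 scale). Itgb2 was called without KP 5. Pathway genes called went from 8 to 0 with all 8 tumours, 20 with DESeq2, 1 (Lama5) with the muscle covariate and between 2 and 9 with a tumour left out, where Lama5 and Lrrc32 were called each time. Under the muscle covariate 3 genes of all were called. RLE or upper-quartile scaling, a mean count of at least 50, non-robust estimates and rlog values called the same 2 members. Of the 16 nearest genes, 6 were still nearest without KPH2 1. Shares moved by less than 1 SD with the longest transcript's length. The cause of these changes was not tested. No paired analysis was possible because replicate numbers were not shared between genotypes. Itgb6 rested on as few as 4 reads in a tumour, which limits the precision of its level.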

Other observations

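Beyond the 8 members, 2 relatives without an alpha partner role were in the table. Itgbl1, which encodes a secreted protein made of integrin-like repeats, was at 118, 19.5, 31.6 and 112 CPM in KP 5, 6, 7 and 8, at 42.1 CPM in KPH2 1 and at 67.6, 17.0 and 17.4 CPM in KPH2 2, 3 and 4 (log2 fold change -1.05 ± 0.76, adjusted p of 0.522 by edgeR). Its level varied as widely within a genotype as between them. Itgb2l, a close relative of Itgb2, stayed at or under 1.35 CPM in all 8 tumours and did not pass the filter. Fermt1, the kindlin of epithelia, was at 20.9 CPM in KPH2 3 and at or under 0.63 CPM in each other tumour, and did not pass the filter either.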
